A study of Mus musculus with 22 samples.

Results

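Kupffer cells, the resident macrophages of the liver, and macrophages in general were followed here through 10 marker genes: Csf1r, Clec4f, Marco, Cd5l, Vsig4, Adgre1, Cd68, Timd4, Folr2 and Mpeg1. The genes were taken by symbol from the deposited table, which lists 24475 genes, and all 10 were above 0 in each of the 22 liver libraries. Levels are in RPKM, which counts reads per kilobase of transcript and per M reads sequenced, so that genes can be compared per length. The choice did not use measured values of the table, but it was made with earlier results of these data known.

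The study measured polyA RNA of mouse liver to ask how glucagon, the fasting hormone of the pancreas, contributes to liver zonation, the division of work between hepatocytes along the lobule. Mice that lacked the glucagon gene (Gcg-/-) gave 3 libraries without infusion, 4 under glucagon at 30 µg/d and 4 under glucagon at 150 µg/d. Wild-type (WT) mice gave 3, 4 and 4 libraries under the same conditions. The uninfused groups are labelled as having no infusion, and no vehicle is named. The labels give no strain, sex, age, route or length of infusion, and do not say whether the libraries came from different mice, so the p-values reflect library-to-library spread only.

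Kupffer cells sit in the sinusoids, where they take up bacteria, aged red cells and debris from portal blood. They are kept alive by signals through the receptor Csf1r, and in mice they carry surface proteins, such as the lectin Clec4f and the complement receptor Vsig4, that few other cells make. Timd4 and Cd5l mark long-resident Kupffer cells, while Cd68 and Mpeg1 are made by macrophages of many tissues. In RNA of whole liver, fewer macrophages and less of an RNA per macrophage cannot be told apart.

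Gcg itself was listed at 0 RPKM in all 22 libraries, so the genotype labels could not be checked with it. Estimated depth was 11.15 to 17.7 M reads per library. Ddx3y, a Y-linked gene, lay between 8.04 and 16.3 RPKM and Xist, the X-inactivation RNA, at no more than 0.0301 RPKM, the pattern of male liver in every library. The hepatocyte gene Alb lay between 17414 and 53681 RPKM. Library 4 (uninfused Gcg-/-) and library 13 (Gcg-/- at 30 µg/d) stood apart in genes with a sex bias in liver: Cyp2b9, a female-biased cytochrome P450, had 111 and 42.9 RPKM there and at most 1.61 RPKM elsewhere. Most calls that rest on these libraries are given with and without them, while most other values include them.

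To show the sequence around the starts of genes with unlike patterns, the promoter windows of Mpeg1 and of 3 of the other 9 genes are printed, from 250 bases before to 50 bases after the annotated start (RefSeq, GRCm38.p6, printed in the direction of transcription). Capitals mark the ETS core GGAAGT and the AP-1 site TGAGTCA, on either strand.
Mpeg1, chr19:12460520-12460819, plus strand: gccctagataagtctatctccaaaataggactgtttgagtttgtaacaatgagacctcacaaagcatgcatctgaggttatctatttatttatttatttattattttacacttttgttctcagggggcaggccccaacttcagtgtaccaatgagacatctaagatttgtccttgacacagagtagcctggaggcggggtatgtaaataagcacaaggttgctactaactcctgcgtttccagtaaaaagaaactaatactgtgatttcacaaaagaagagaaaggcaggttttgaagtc
Cd68, chr11:69666121-69666420, minus strand: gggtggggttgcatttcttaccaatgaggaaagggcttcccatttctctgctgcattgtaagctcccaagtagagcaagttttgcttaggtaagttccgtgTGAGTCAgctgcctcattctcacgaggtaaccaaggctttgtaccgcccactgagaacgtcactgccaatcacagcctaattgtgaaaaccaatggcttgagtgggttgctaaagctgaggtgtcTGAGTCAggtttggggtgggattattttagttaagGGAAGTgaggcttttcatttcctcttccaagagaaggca
Vsig4, chrX:96293389-96293688, minus strand: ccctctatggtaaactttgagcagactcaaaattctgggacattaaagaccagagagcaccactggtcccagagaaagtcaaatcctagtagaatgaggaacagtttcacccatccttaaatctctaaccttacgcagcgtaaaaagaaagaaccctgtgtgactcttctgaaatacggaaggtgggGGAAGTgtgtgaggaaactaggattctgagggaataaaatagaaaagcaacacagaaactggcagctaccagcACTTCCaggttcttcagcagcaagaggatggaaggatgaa
Timd4, chr11:46810549-46810848, plus strand: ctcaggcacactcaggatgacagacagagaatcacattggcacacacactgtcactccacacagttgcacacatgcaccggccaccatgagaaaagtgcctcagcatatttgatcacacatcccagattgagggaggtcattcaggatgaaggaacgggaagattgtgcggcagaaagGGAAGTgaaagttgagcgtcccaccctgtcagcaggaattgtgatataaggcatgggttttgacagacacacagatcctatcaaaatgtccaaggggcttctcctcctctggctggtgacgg

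Both motifs were searched on both strands, with the STAT form TTCNNNGAA and the C/EBP form TTNNGNAA, in the windows of the 8 genes used for sequence. These genes have 9 windows in all, and each motif was found in as many windows as genes. GGAAGT, the core read by ETS factors such as the macrophage regulator PU.1, was found in 5 of the 8 genes (Clec4f, Vsig4, Cd68, Timd4 and Folr2), and 23.8% of all 32851 windows hold it. TGAGTCA was found in Cd68 and Folr2, against 5.2% of all windows. TTNNGNAA was found in 6 of the 8 genes, Mpeg1 included, against 40.7% of all windows, and TTCNNNGAA in 0 of 8, against 8.3%. The windows of Mpeg1, Marco and Cd5l hold neither GGAAGT nor TGAGTCA, which says only that these letters are not in them. The windows printed beside that of Mpeg1 all hold GGAAGT, so the lack is not particular to Mpeg1 among the genes searched.

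The 10 genes covered a wide range of levels. Cd5l, a secreted scavenger protein, and Clec4f were the highest, with medians over the 22 libraries of 53.4 and 49.3 RPKM. Vsig4 (21.99 RPKM) and Csf1r (18.9 RPKM) followed, then the folate receptor Folr2 (9.49 RPKM), the lysosomal protein Cd68 (8.19 RPKM), the adhesion receptor Adgre1, known as F4/80 (7.33 RPKM), the scavenger receptor Marco (4.78 RPKM) and the phosphatidylserine receptor Timd4 (3.74 RPKM). Between lowest and highest library, 8 of these 9 differed by 2.02- to 2.77-fold, and Marco by 13.4-fold. Mpeg1, which encodes a pore-forming protein of phagocytes, stood between Clec4f and Vsig4 with a median of 26.9 RPKM. Neighbours in this order overlapped in their ranges over libraries. Mpeg1 differed by 2.97-fold between its lowest and highest library, and its group means ran between 17.05 and 34.7 RPKM.

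**Figure D1:**
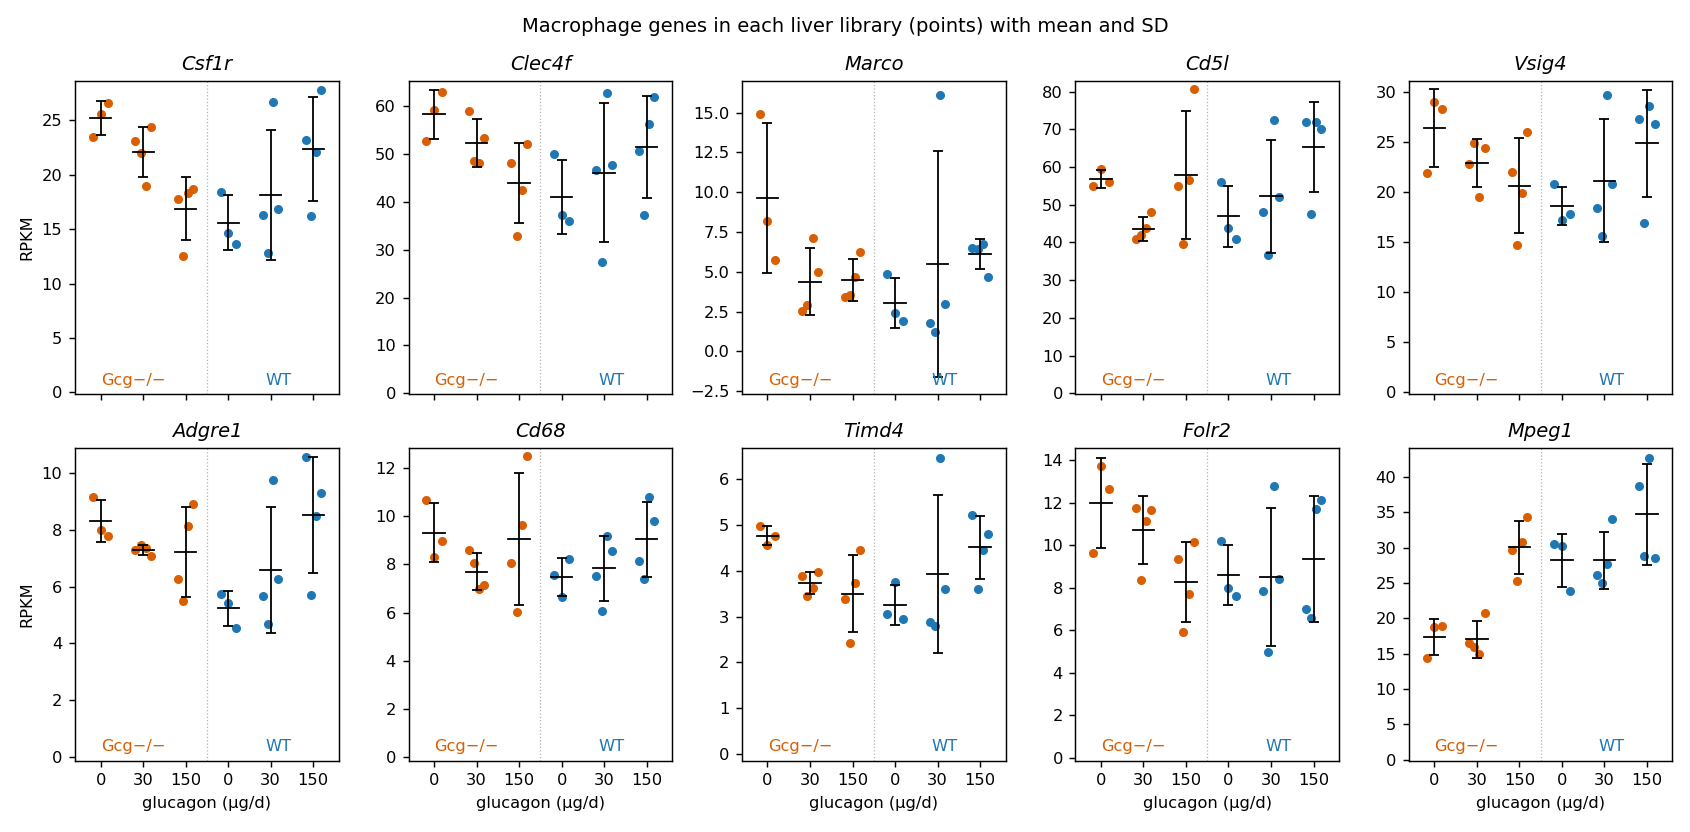
RPKM of the 10 macrophage genes in each library (points) by group, with the mean and SD (n = 3, 4 and 4 per genotype for 0, 30 and 150 µg/d glucagon). In Mpeg1 the 7 Gcg-/- libraries at 0 and 30 µg/d lie between 14.4 and 20.8 RPKM, below the other 15 libraries, while Csf1r is highest on average in uninfused Gcg-/- liver (25.2 RPKM).

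Without infusion, Mpeg1 fell in Gcg-/- liver, and it was the 1 gene of the 10 that passed the test. The other 9 all had fold changes above 0, as did 52.1% of all genes tested, and none of them passed. Mpeg1 had 14.4, 18.8 and 18.9 RPKM in the uninfused Gcg-/- libraries, against 30.5, 30.2 and 23.8 RPKM in the uninfused WT libraries. Every Gcg-/- value was under every WT value. The means were 17.4 ± 2.57 RPKM in Gcg-/- and 28.2 ± 3.77 RPKM in WT (SD, n = 3 each). Limma put the log2 fold change at -0.67 with an SE of 0.17 and an adjusted p of 0.0489. Over all 11590 genes tested 179 were called, which is 1.54%, and 0.751% were called lower. The adjusted p lay near the threshold of 0.05 and the call depended on single libraries: leaving out 1 of the 6 libraries ended it in 5 of 6 cases (adjusted p between 0.0771 and 0.22), with a fold change between -0.78 and -0.55. Without libraries 4 and 13 the log2 fold change was -0.55 (adjusted p = 0.204).

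Csf1r, the receptor on which macrophages depend for survival, had 23.5, 25.6 and 26.6 RPKM in uninfused Gcg-/- liver, against 18.4, 14.6 and 13.7 RPKM in uninfused WT liver. The groups did not overlap, and its log2 fold change was 0.67 (SE 0.21, limma, adjusted p = 0.104). Marco had 14.9, 8.21 and 5.77 RPKM in Gcg-/- liver, against 4.86, 2.44 and 1.91 RPKM in WT liver, the highest value being that of library 4. Its log2 fold change was 1.36 (SE 0.53, limma, adjusted p = 0.185), and 1.02 without libraries 4 and 13. Clec4f had 52.7, 59.3 and 62.9 RPKM in Gcg-/- liver, against 50.001, 37.3 and 36.1 RPKM in WT liver, again without overlap (log2 fold change 0.50, limma, adjusted p = 0.267).

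Adgre1 (8.31 ± 0.75 RPKM in Gcg-/- and 5.24 ± 0.62 RPKM in WT, SD, n = 3 each), Vsig4, Cd68 and Timd4 also had every Gcg-/- library above every WT library, while Cd5l and Folr2 overlapped. In all, 7 of the 10 genes were higher without overlap, where 13.1% of all genes tested were. Another 1 was lower without overlap, where 11.6% were. As the genes other than Mpeg1 varied together over libraries (given below), such counts do not come from independent genes. The 9 genes other than Mpeg1 had log2 fold changes between 0.28 and 1.36. Their median was 0.48, against 0.011 over all genes tested. Mpeg1 was set apart after the values were seen, so values for the 9 alone, here and elsewhere, are a description. Of these 9, 6 were under an unadjusted p of 0.05, as were 9.3% of all genes in this direction, and their adjusted p-values lay between 0.104 and 0.553. When libraries were weighted by how closely they followed the fit (array weights), Csf1r (limma, adjusted p = 0.0163), Marco (0.0368) and Adgre1 (0.0439) passed beside Mpeg1. The count of all genes called also moved with the setting, from 22 to 945 against 179. These added calls are thus not set against a share of all genes and may follow a general rise in calls.

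**Figure D2:**
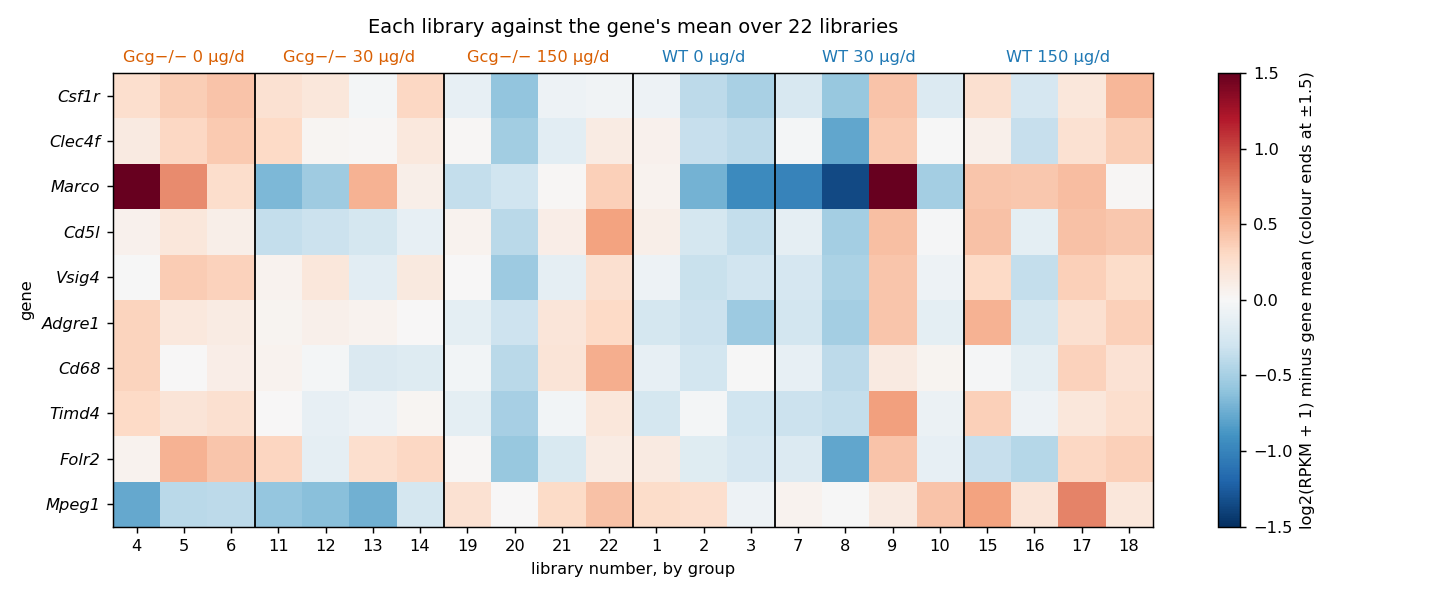
Difference of log2(RPKM + 1) in each library from the gene's mean over the 22 libraries, for the 10 genes (down) and the libraries by number and group (across), red for higher and blue for lower, with colours ending at 1.5. Libraries 9 and 22 are red and 8 and 20 blue for most of the first 9 genes, while Mpeg1 is blue in the 7 Gcg-/- libraries at 0 and 30 µg/d.

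Under glucagon at 150 µg/d in Gcg-/- liver, Mpeg1 rose and was again the 1 gene of the 10 that passed the test. Mpeg1 had 29.7, 25.25, 30.8 and 34.4 RPKM in Gcg-/- liver at 150 µg/d, against the 14.4, 18.8 and 18.9 RPKM of uninfused Gcg-/- liver given above. No library overlapped between the groups, as was so for 4.55% of all genes in this direction. The means were 30.0 ± 3.76 RPKM (SD, n = 4) at 150 µg/d and 17.4 ± 2.57 RPKM (SD, n = 3) without infusion, a log2 fold change of 0.76 (SE 0.16, limma, adjusted p = 0.0164). In this comparison 2.72% of all genes were called and 1.31% were called higher. The call ended without library 4 (adjusted p = 0.0972) or library 22 (0.0593), and without libraries 4 and 13 together (log2 fold change 0.64, adjusted p = 0.0826).

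The other 9 genes had fold changes below 0 in the same comparison, as had 58.4% of all genes, and none passed. They ran from -0.89 in Marco to -0.016 in Cd5l on the log2 scale, with a median of -0.38 against -0.040 over all genes. Csf1r had 17.8, 12.6, 18.4 and 18.7 RPKM at 150 µg/d, against 23.5, 25.6 and 26.6 RPKM without infusion. Each infused library was under each uninfused one, and the log2 fold change was -0.57 (SE 0.20, limma, adjusted p = 0.125). Clec4f (43.9 ± 8.30 RPKM at 150 µg/d and 58.3 ± 5.18 RPKM without infusion) and Timd4 (3.50 ± 0.84 RPKM at 150 µg/d and 4.77 ± 0.21 RPKM without infusion) were likewise lower without overlap, as were 8.95% of all genes. This comparison shares its 3 uninfused Gcg-/- libraries with the comparison of genotypes, so opposite signs in both are not independent of each other.

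At 30 µg/d in Gcg-/- liver Mpeg1 lay at 16.5, 15.97, 14.9 and 20.8 RPKM, around the level of uninfused Gcg-/- liver (log2 fold change -0.025, 95% interval -0.35 to 0.30). None of the 10 genes was called at this dose, where 0.0863% of all genes were. All 10 fold changes were below 0, as were 55.8% of all genes, and those of Cd5l, Adgre1 and Timd4 came from groups that did not overlap (5.58% of all genes were lower in this way). Cd5l had 40.8, 41.9, 43.7 and 48.1 RPKM at 30 µg/d, against 55.0, 59.4 and 55.9 RPKM without infusion (log2 fold change -0.37, SE 0.21, limma, adjusted p = 0.567). Between the doses, Mpeg1 was higher at 150 than at 30 µg/d (log2 fold change 0.78, SE 0.14, limma, adjusted p = 0.0182), where 0.544% of all genes were called. That call ended without library 11, 12, 21 or 22, with adjusted p-values between 0.052 and 0.0869.

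**Figure D3:**
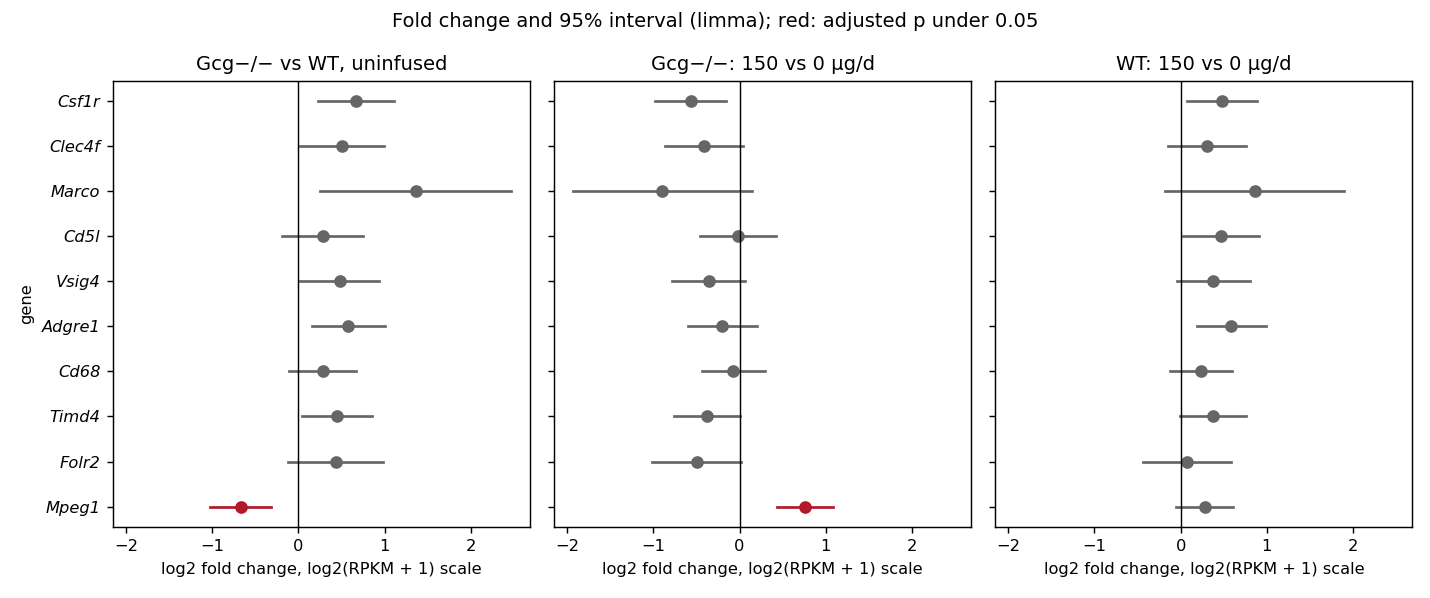
Log2 fold change of each gene on the log2(RPKM + 1) scale with its 95% interval from limma, in uninfused Gcg-/- against uninfused WT liver, in Gcg-/- liver at 150 against 0 µg/d, and in WT liver at 150 against 0 µg/d. Mpeg1 (red, adjusted p under 0.05) is at -0.67 and 0.76 in the first 2 panels, where the other 9 genes lie on the opposite side of 0.

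In WT liver none of the 10 genes was called at either dose. At 30 µg/d no gene of the 11590 tested was called by limma (0%), with 657 at an unadjusted p under 0.05, and the fold changes of the 10 lay between -0.07 and 0.25 on the log2 scale. At 150 µg/d, where 0.293% of all genes were called, all 10 fold changes were above 0, as were 46.2% of all, with a median of 0.38 against -0.016 over all genes. Adgre1 had the smallest p-value, with 10.6, 5.72, 8.50 and 9.31 RPKM at 150 µg/d, against 5.73, 5.43 and 4.54 RPKM without infusion. Library 16 lay inside the uninfused range, and the log2 fold change was 0.59 (SE 0.19, limma, adjusted p = 0.219). Csf1r had 23.2, 16.3, 22.1 and 27.8 RPKM at 150 µg/d, against 18.4, 14.6 and 13.7 RPKM without infusion (log2 fold change 0.48, adjusted p = 0.326). Mpeg1 had 38.8, 28.9, 42.7 and 28.5 RPKM at 150 µg/d, against 30.5, 30.2 and 23.8 RPKM without infusion (log2 fold change 0.28, adjusted p = 0.498). For all 10 genes the infused and uninfused WT groups overlapped.

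Whether 150 µg/d of glucagon acted differently in the genotypes was tested as the change in Gcg-/- minus the change in WT. No gene of all tested passed by limma (0%), with 1187 at an unadjusted p under 0.05. The difference was below 0 for the 9 genes other than Mpeg1, between -1.75 and -0.31 on the log2 scale, and 6 of the 9 were under an unadjusted p of 0.05, as were 5.92% of all genes in this direction. Csf1r came closest, at -1.05 (SE 0.28, adjusted p = 0.205). Mpeg1 was at 0.48 (SE 0.22, adjusted p = 0.469). At 30 µg/d the same difference called none of the 10 genes and 0.00863% of all genes.

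Between genotypes under infusion, Mpeg1 was lower in Gcg-/- liver at 30 µg/d. It had 16.5, 15.97, 14.9 and 20.8 RPKM in Gcg-/- liver, against 26.1, 25.045, 27.7 and 34.0 RPKM in WT liver at the same dose, with no overlap (log2 fold change -0.70, SE 0.14, limma, adjusted p = 0.0421). Of all genes 0.328% were called. The call held in 5 of 17 alternatives, with adjusted p-values between 0.0343 and 0.129, and of the 8 libraries only leaving out library 14 kept it. The other 9 genes had a median log2 fold change of 0.17 there, with 6 above 0 and 3 below, where 49.9% of all genes were above 0. At 150 µg/d none of the 10 genes was called, where 0.0259% of all genes were. All 10 fold changes were below 0, as were 53.4% of all genes. Those of the 9 other than Mpeg1 had a median of -0.22 on the log2 scale. Mpeg1 averaged 30.0 ± 3.76 RPKM in Gcg-/- and 34.7 ± 7.15 RPKM in WT liver (SD, n = 4 each). Over all 6 groups at once, limma's F test called Mpeg1 (adjusted p = 0.00212) and 3.28% of all genes, with Csf1r next among the 10 (adjusted p = 0.166).

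The ratio of Mpeg1 to Csf1r separated the same libraries. It ran between 0.613 and 0.851 in the 7 Gcg-/- libraries at 0 and 30 µg/d, and between 1.67 and 2.01 in the 4 Gcg-/- libraries at 150 µg/d. In WT liver it ran between 1.66 and 2.06 without infusion, 1.04 and 2.02 at 30 µg/d and 1.02 and 1.93 at 150 µg/d. The ratio was chosen after the values were seen and is given as a description.

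The 9 genes other than Mpeg1 varied together from library to library. For the 36 pairs among them, Pearson's r over the 22 libraries of log2(RPKM + 1) lay between 0.50 and 0.92, with a median of 0.74, and Spearman's rho between 0.41 and 0.95. All 36 had a permutation p under 0.05 for r after Benjamini-Hochberg adjustment over 45 pairs, and 35 for rho. Mpeg1 was set apart after the values were seen, so these counts of pairs are a description. Csf1r and Clec4f were the closest pair (r = 0.92, rho = 0.95, permutation p = 1e-05 for both, the smallest that 100000 permutations can give, adjusted p = 4.5e-05 for r; r = 0.91 without libraries 18 and 20). Within groups, after subtracting the group means, the 22 values were permuted freely, as if independent. The permutation p-values within groups therefore come out too small, and counts of pairs that passed too high. There r lay between 0.37 and 0.91 and rho between 0.20 and 0.90, and 34 of the 36 pairs passed for r and 30 for rho. The lowest of these were pairs with Marco. Its r with the other 8 genes lay between 0.37 and 0.71, and without the 2 farthest libraries (8 and 9, or 8 and 16 for Clec4f) between 0.0020 with Vsig4 and 0.40 with Cd5l.

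The 9 pairs with Mpeg1 had r between -0.25 and 0.50, with a median of 0.015, and only that with Cd5l passed (r = 0.50, rho = 0.52, adjusted permutation p = 0.0216 for r and 0.019 for rho). Within groups r of these 9 pairs lay between 0.13 and 0.60 and rho between 0.21 and 0.62. The r with Vsig4 (0.60), Cd5l (0.57) and Clec4f (0.46) passed, by p-values that come out too small as said above. Within groups the r of Mpeg1 was thus above 0 with each of the other genes.

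**Figure D4:**
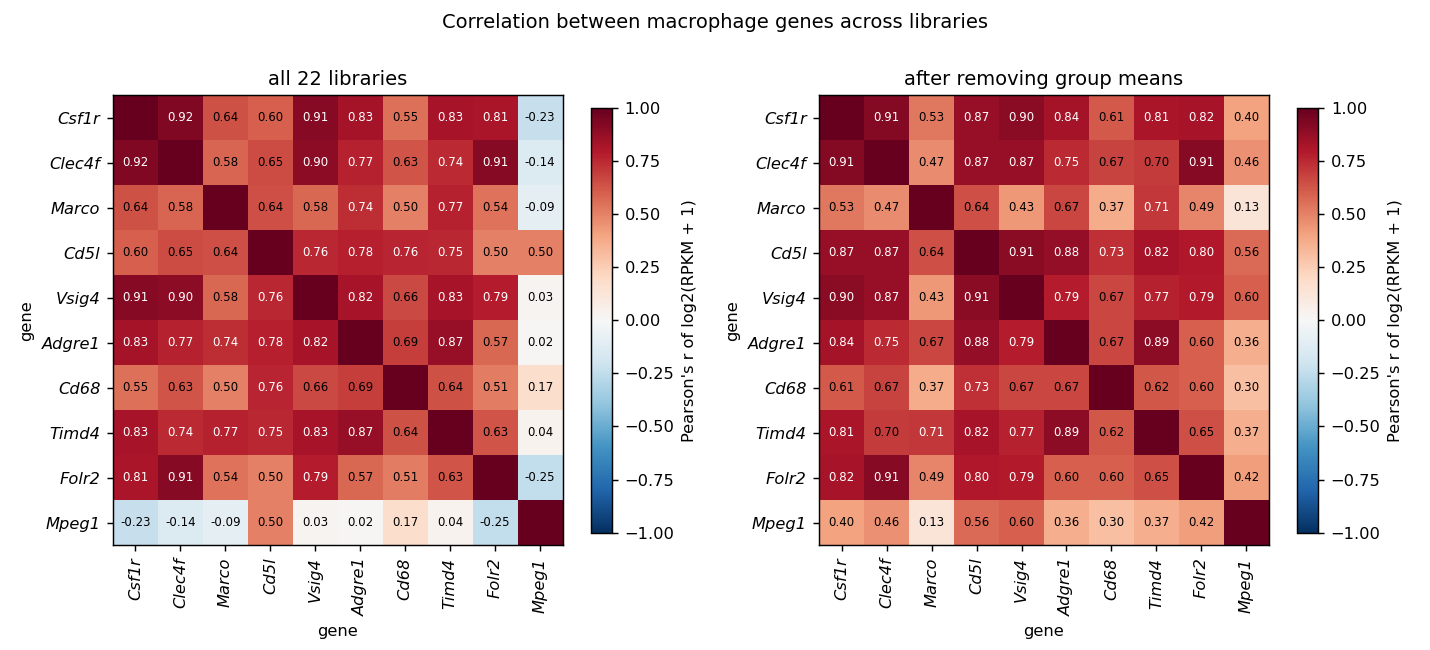
Pearson's r of log2(RPKM + 1) between each pair of the 10 genes over the 22 libraries, on the left with all values and on the right after subtracting each group's mean. The bottom line and last column, Mpeg1, run between -0.25 and 0.50 on the left and between 0.13 and 0.60 on the right, against 0.50 to 0.92 and 0.37 to 0.91 for the other pairs.

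The shared variation followed single libraries. Among the WT libraries at 30 µg/d, library 9 had the highest and library 8 the lowest value of all 9 genes. Among the Gcg-/- libraries at 150 µg/d, library 22 was highest in 9 of 9 and library 20 lowest in 8 of 9. Library 16 was lowest in 8 of 9 among the WT libraries at 150 µg/d, and among uninfused WT libraries library 1 was highest in 7 of 9. The summed level of the 9 genes was 246 RPKM in library 9 and 112 RPKM in library 8, a wider gap than between any pair of group means. Those means were 211 ± 7.27 RPKM in uninfused Gcg-/- (SD, n = 3), 175 ± 9.18 at 30 µg/d and 172 ± 39.4 at 150 µg/d (n = 4 each), and 150 ± 23.4 in uninfused WT (n = 3), 170 ± 55.9 at 30 µg/d and 202 ± 36.6 at 150 µg/d (n = 4 each).

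By Spearman's rho over the 22 libraries, the genes most like the mean of the 10 included Sdc3, a syndecan (rho = 0.97), the leukocyte integrin Itgal (0.94), the adaptor Fyb (0.94), the complement genes C1qb (0.93) and C1qc (0.93), the protease Ctss (0.93), properdin Cfp (0.92), Nckap1l (0.91) and Themis2 (0.91). Sdc3 averaged 20.4 ± 0.52 RPKM in uninfused Gcg-/- liver and 16.03 ± 2.40 RPKM in uninfused WT liver (SD, n = 3 each). The genes most like Mpeg1 alone, listed after its values were seen, were Orm2 (0.96), Ang (0.93), Rnase4 (0.91), Slc3a1 (0.91), Apon (0.90), Saa2 (0.87), Litaf (0.86), Itih4 (0.86), Ggt6 (0.86) and Ctcflos (0.85). None of these 10 is on the macrophage lists.

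Orm2 encodes orosomucoid, a plasma protein of the acute phase response that hepatocytes secrete. It had 12.7, 32.8 and 57.8 RPKM in uninfused Gcg-/- liver, 17.2 to 40.1 RPKM at 30 µg/d and 65.3 to 1489 RPKM at 150 µg/d. In WT liver it had 367, 111 and 38.6 RPKM without infusion, 40.7 to 552 RPKM at 30 µg/d and 140 to 2360 RPKM at 150 µg/d. Its order of libraries was close to that of Mpeg1 (r = 0.88 on the log2 scale, 0.865 without libraries 4 and 13, 0.83 within groups). As Orm2 was picked out of all genes for this likeness, no p is given.

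**Figure D5:**
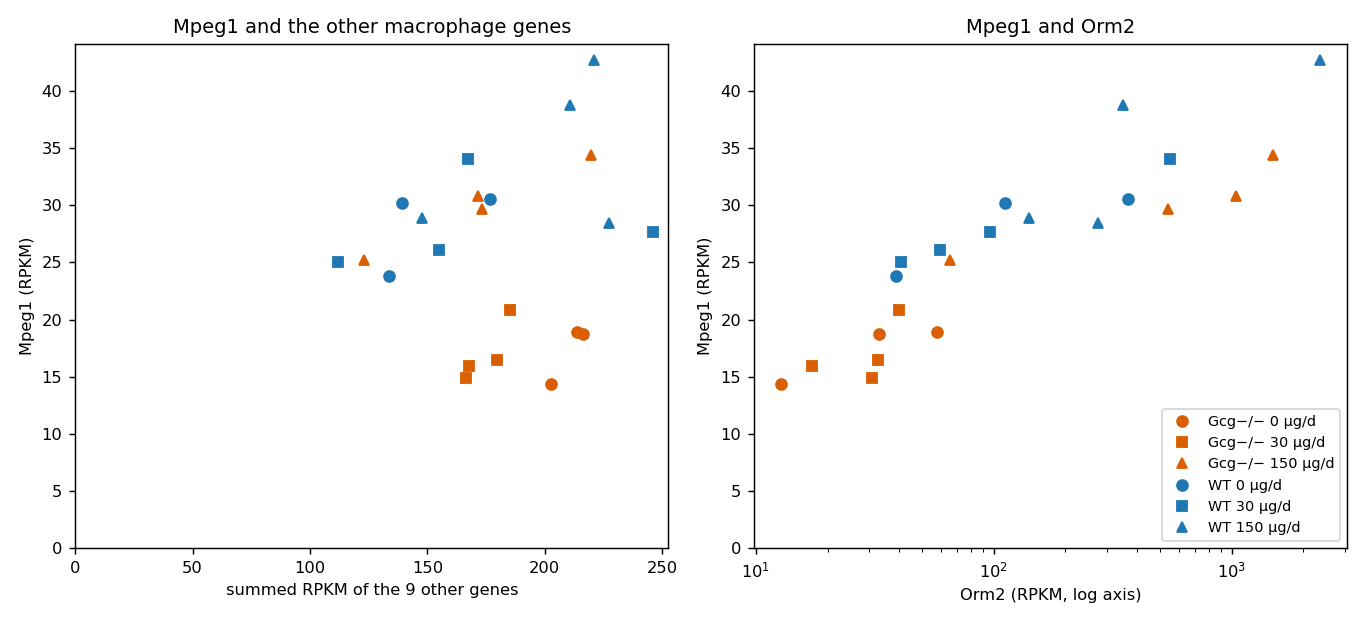
Mpeg1 (RPKM) in each library against the summed RPKM of the other 9 genes on the left and against Orm2 (RPKM, log axis) on the right, with Gcg-/- in orange and WT in blue and the dose by symbol. On the left the 7 Gcg-/- libraries at 0 and 30 µg/d lie under the rest, at 14.4 to 20.8 RPKM, and on the right all libraries lie along 1 rising band.

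Of a list of 30 other macrophage genes 29 were tested. In uninfused Gcg-/- against WT liver 28 of 29 fold changes were above 0 (median 0.43), as were 52.1% of all genes, of which 1.54% were called. In that comparison Cd14, the lipopolysaccharide co-receptor, rose (2.72 ± 0.26 against 0.84 ± 0.33 RPKM, SD, n = 3 each; limma log2 fold change 1.02 with SE 0.22, adjusted p = 0.0296). At 150 µg/d in Gcg-/- liver 28 of 29 were below 0 (median -0.22), as were 58.4% of all genes, of which 2.72% were called, and Cd14 fell (1.19 ± 0.50 RPKM at 150 µg/d, n = 4, against the 2.72 RPKM without infusion, log2 fold change -0.79, limma adjusted p = 0.042). The first call held in 9 of 14 alternatives and the second in 2 of 15, and without libraries 4 and 13 their adjusted p-values were 0.111 and 0.14. At 150 µg/d in WT liver 27 of 29 were above 0 (median 0.36), as were 46.2% of all genes, with none of the list called. C1qa, a subunit of the complement starter C1q, stood for those that were not called: 38.5 ± 1.63 RPKM in uninfused Gcg-/- and 27.1 ± 6.03 RPKM in uninfused WT liver (adjusted p = 0.198).

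Among the transcription factors of macrophages, Irf8 rose in uninfused Gcg-/- against WT liver, where 1.54% of all genes were called. The 14 listed factors did not rise as a set: their sum averaged 329.5 ± 36.9 RPKM in Gcg-/- and 404 ± 17.1 RPKM in WT liver (SD, n = 3 each). Cebpa (98.8 against 137 RPKM), Rxra (86.4 against 99.3 RPKM), Nr1h3 and Id3 were lower on average in Gcg-/- liver. Irf8, needed for myeloid development, had 3.64 ± 0.54 against 2.40 ± 0.34 RPKM (log2 fold change 0.45, SE 0.11, limma, adjusted p = 0.0409). Spic, a factor of red pulp macrophages and Kupffer cells, had 1.89 ± 0.29 against 0.83 ± 0.17 RPKM without passing (log2 fold change 0.65, adjusted p = 0.0528). Without libraries 4 and 13 the adjusted p of Irf8 was 0.191. At 150 µg/d in Gcg-/- liver Id1, an inhibitor of DNA binding that Kupffer cells express, fell, where 2.72% of all genes were called, and no other factor passed. It had 1.75, 1.09, 1.45 and 2.07 RPKM at 150 µg/d, against 16.3, 4.40 and 3.57 RPKM without infusion (log2 fold change -1.55, limma adjusted p = 0.0165). The highest value was that of library 4, and without libraries 4 and 13 the log2 fold change was -0.95 (adjusted p = 0.0611).

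Of 15 growth factors and receptors, 13 were tested and none was called in any comparison, while Csf2 and Csf3 were listed at 0 in all 22 libraries. Csf1, a ligand of Csf1r, had 2.89 ± 0.30 RPKM in uninfused Gcg-/- and 2.23 ± 0.17 RPKM in uninfused WT liver (SD, n = 3 each, adjusted p = 0.324), and Il34, its other ligand, 0.84 ± 0.17 against 0.67 ± 0.11 RPKM (adjusted p = 0.664). Of 20 genes of monocytes and recruited macrophages only 6 reached the mean of 0.5 RPKM needed for the test. Ccr2, the receptor by which monocytes leave the marrow, averaged 0.47 RPKM over all libraries, and Ly6c2, a monocyte surface protein, 0.66 RPKM. Spp1 averaged 118 ± 58.1 RPKM in uninfused Gcg-/- and 19.8 ± 9.42 RPKM in uninfused WT liver (SD, n = 3 each). It was not called. At 30 µg/d it averaged 110 ± 82.9 RPKM in Gcg-/- and 23.0 ± 6.24 RPKM in WT liver (limma, adjusted p = 0.168). Ly6c2, Cd9, Plac8, Il1b and Arg1 were lower on average in Gcg-/- than in WT liver at that dose. Arg1 of this list rose at 150 µg/d in Gcg-/- liver (967 ± 262 against 448 ± 89.0 RPKM, log2 fold change 1.08, adjusted p = 0.00985), and it is also the urea cycle enzyme of hepatocytes. Of all genes 2.72% were called in that comparison. Without libraries 4 and 13 the log2 fold change of Arg1 was 1.20 (limma, adjusted p = 0.019).

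Markers of other cells of the sinusoid also differed between these groups. All 22 endothelial genes were tested. In uninfused Gcg-/- against WT liver 21 of 22 fold changes were above 0, against 52.1% of all genes, and 5 passed (Pecam1, Lyve1, Stab2, Cdh5 and Tek), against 1.54% of all genes. In Gcg-/- liver at 150 µg/d 21 of 22 were below 0, against 58.4% of all genes, and 4 passed (Pecam1, Cdh5, Tek and Tie1), against 2.72%. Their summed level ran from 253 to 262 RPKM in uninfused Gcg-/- libraries, from 202 to 230 RPKM in those at 150 µg/d and from 192 to 209 RPKM in uninfused WT libraries. Of 15 genes of stellate cells and fibroblasts none was called, and their sum ran from 196 to 208 RPKM in uninfused Gcg-/- libraries, from 191 to 212 RPKM in those at 150 µg/d and from 152 to 167 RPKM in uninfused WT libraries. Of these 15 fold changes 5 were below 0 at 150 µg/d in Gcg-/- liver, where those of all the 9 genes were. No endothelial or stellate gene was at 0 in any library. Without libraries 4 and 13, of these calls only that of Tek at 150 µg/d in Gcg-/- liver held (adjusted p = 0.0172). Lyve1, with 10.8 RPKM in library 4 and 4.22 and 4.79 RPKM in the other uninfused Gcg-/- libraries, had a log2 fold change of 0.67 against WT in place of 1.03. Tie1 was also lower at 150 than at 30 µg/d in Gcg-/- liver (log2 fold change -0.54, limma, adjusted p = 0.0255). Of all genes 0.544% were called there. Without libraries 4 and 13 the adjusted p of Tie1 was 0.0145, and its call ended without library 11, 12, 14, 21 or 22. The part of these cells in the result was not tested.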

How the data were processed

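Liver polyA RNA of 22 libraries was measured. Trizol extraction, bead purification with DNase and a strand-specific KAPA kit are named, per the labels' protocols. The build was GRCm38 and the tools CASAVA 1.8.2 and FastQC, per the submitters' processing notes. How reads were aligned and counted, with which annotation and whether by strand, is not given in the sources used here. Csf1r is overlapped on the opposite strand by Hmgxb3, and Folr2 by Gm10602 and Gm45319, so reads shared with them cannot be told apart. The authors deposited RPKM values per gene, with 1 column per library and no pooling.

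Groups came from the titles. The 11590 genes whose RPKM averaged 0.5 or more were tested on log2(RPKM + 1). The model was fitted in limma 3.58.1 (R 4.3.3) with all 6 groups together and a mean-variance trend (16 residual and 3.18 prior degrees of freedom). There were 11 contrasts, adjusted by Benjamini-Hochberg over all genes tested, and calls needed an adjusted p under 0.05. A fold change on this scale understates the change of low genes. The fit was tested on simulated data.

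Depth was estimated from whole-read steps in low values: 66.1 to 71.6% came out whole within 0.1 of a read, too few for a count test. For 1 kb of transcript 1 read was then worth 0.0565 to 0.0897 RPKM. Marco rested on an estimated 28 to 380 reads per library, and Mpeg1 on 721 to 2832.

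The 10 genes and the 16 gene lists were chosen with earlier results of these data known. The genes named are the 10, called genes of the lists (up to 4 per list and comparison by smallest adjusted p) and the 10 genes most like the mean of the 10 by Spearman's rho, among genes with a mean of at least 1 RPKM. Other list members, among them Stab2 as a further endothelial call, and the genes most like Mpeg1 were named after their values were seen. The values of 2 genes that this rule takes are not reported here. Promoter sequences are RefSeq's, on GRCm38.p6. Of the other lists, none of those of dendritic cells, neutrophils, lymphocytes, bile duct cells, hepatocytes, red cells or male-biased genes held a called gene in any contrast. Cyp17a1 of the female-biased list was higher at 150 µg/d in both genotypes, and Eif2s3y of the Y-linked list was lower at 150 µg/d in Gcg-/- liver.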

Additional observations from a re-analysis of the deposited data

Results flagged for a closer look

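Within groups of 4 libraries, 1 library lay far from the other 3 in 5 of the 40 combinations of gene and group tested by Dixon's criterion, which flags about 1 in 20 groups by chance. In Gcg-/- liver at 150 µg/d, Csf1r had 12.6 RPKM in library 20, against 17.8 to 18.7 RPKM in the other 3. Among WT libraries at 30 µg/d, Marco had 16.1 RPKM in library 9, against 1.20 to 2.96 RPKM in the other 3. Among WT libraries at 150 µg/d, Marco had 4.69 RPKM in library 18, against 6.45 to 6.75 RPKM in the other 3. In the same group library 16 was low for Cd5l, with 47.6 RPKM against 70.2 to 72.0 RPKM, and for Vsig4, with 16.98 RPKM against 26.9 to 28.6 RPKM.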

How the results depend on the processing

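The number of the 10 genes called was 1 in each of 4 comparisons. In uninfused Gcg-/- against WT liver it was 0 with no filter on low values, with quantile normalization, with the groups compared alone and without libraries 4 and 13, and 4 with array weights. Leaving out 1 library at a time gave 0 to 1 (1 only without library 6). In Gcg-/- liver at 150 µg/d against no infusion it was 0 with the groups alone and without libraries 4 and 13, and 0 to 1 when leaving out 1 library. In Gcg-/- against WT liver at 30 µg/d it was 0 with no filter, median-of-ratios scaling, quantile normalization, the groups alone and without libraries 4 and 13, and 0 to 1 when leaving out 1 library. At 150 against 30 µg/d in Gcg-/- liver it was 0 with the groups alone and 0 to 1 when leaving out 1 library. With the groups alone fewer libraries enter the estimate of the spread. For the other settings the cause was not tested. In the other 7 comparisons it was 0 under each alternative.

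Of the refitted fold changes of the 10 genes, 680 kept their direction and their side of the threshold, 30 lost the call, 3 gained it and 11 turned. Those of Mpeg1 kept their direction under each alternative, as did the called genes of the lists. Cd5l at 150 µg/d in Gcg-/- liver turned to 0.035 with median-of-ratios scaling and 0.023 with array weights (-0.19 to 0.15 leaving out 1 library). Cd68 in that comparison turned to 0.070 with array weights and 0.021 without libraries 4 and 13 (-0.23 to 0.089 leaving out 1 library). Folr2 at 150 µg/d in WT liver ran from -0.058 to 0.21 leaving out 1 library.

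The count of all genes called also moved. In uninfused Gcg-/- against WT liver it was 179, with 22 to 945 under other settings and 9 to 294 leaving out 1 library. For 150 µg/d in Gcg-/- liver it was 315, with 1 to 770 and 61 to 585, and for 150 µg/d in WT liver 34, with 8 to 438 and 0 to 48. No paired analysis was possible because the libraries' running numbers are unique across groups. Marco, Folr2 and Timd4, with as few as 28, 72 and 74 estimated reads in a library, are limited most by depth.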

Other observations

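Saa2, a serum amyloid of the acute phase response among the genes most like Mpeg1, varied widely within groups. It had 24.2, 51.6 and 313 RPKM in uninfused Gcg-/- libraries, 12.3 to 165 RPKM at 30 µg/d and 90.4 to 7987 RPKM at 150 µg/d. In WT libraries it had 1425, 920 and 26.5 RPKM without infusion, 27.8 to 3684 RPKM at 30 µg/d and 389 to 6351 RPKM at 150 µg/d. Library 20, the lowest in Saa2 among Gcg-/- libraries at 150 µg/d, was also the lowest there in Mpeg1 (25.25 RPKM) and in 8 of the 9 other genes. Saa2 was listed for its likeness to Mpeg1, so a shared lowest library is not separate evidence of a link. Itih4, an inter-alpha-trypsin inhibitor chain made by hepatocytes, averaged 782 ± 110 RPKM in uninfused Gcg-/- liver (SD, n = 3) and 1475 ± 424 RPKM at 150 µg/d (n = 4), against 861 ± 164 RPKM in uninfused WT liver (n = 3). Between the mean of the 9 other genes and Alb no relation was detected over the 22 libraries (r = 0.01, rho = -0.19, permutation p = 0.965 and 0.393, not adjusted). Within groups r was -0.29 (permutation p = 0.184) and rho -0.50 (permutation p = 0.0179). Without libraries 8 and 9 the r within groups was -0.51. The permutation p-values within groups come out too small, as group means had been subtracted.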
